A study of Homo sapiens with 8 samples.

Results

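Respiratory chain subunits from both genomes were followed in 2 human prostate cancer lines, with miR-375 overexpressed or as controls. LNCaP cells respond to androgen and came from a tumour in a lymph node, whereas PC3 cells came from a tumour in bone. The 4 groups were LNCaP with miR-375, LNCaP control, PC3 with miR-375 and PC3 control, each with 2 libraries of poly(A) RNA. LNCaP grew in 10% serum and PC3 in 20%, so line and serum cannot be told apart. The sources used here do not give how miR-375 was raised or what the controls received, and nothing says that replicates came from separate cultures, so p-values measure only the spread between these samples. Members were chosen by gene symbol: mitochondrial ND, CO, CYB and ATP genes and the nuclear NDUFA, NDUFB, NDUFC, NDUFS, NDUFV, NDUFAB1, SDH, UQCR, COX4 to COX8 and ATP5 genes, without pseudogene and antisense symbols. Of 102 such symbols, COX4I2, COX6A2 and NDUFC2-KCTD14 had 0 counts and ATP5MGL had 6, which left 98 members with at least 10 counts over the 8 libraries, out of 60622 genes in all. They comprised 11 mitochondrially encoded and 87 nuclear genes; 2 mitochondrial ATP synthase genes were not analysed here. After a filter on low counts 95 were tested, 11 mitochondrial and 84 nuclear, and ATP5MF-PTCD1, COX8C and COX7A1 were not.

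The respiratory chain passes electrons from NADH (complex I) and succinate (complex II) through complexes III and IV to oxygen, and the ATP synthase (complex V) uses the proton gradient that I, III and IV build. Human mitochondrial DNA encodes core subunits of complexes I, III, IV and V, transcribed as long polycistronic RNAs that are cut into messages, whereas every subunit of complex II and most of the others are nuclear and are imported. A complex therefore needs products of both genomes.

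Library totals ran from 33973861 to 41890528 counts. The MIR375 precursor had 0 counts in all 8 libraries, which allows up to 3 counts in each and does not check the labels, since a mature microRNA is not captured by poly(A) libraries. The 7 LNCaP markers summed to 4426 and 4531 CPM (counts after TMM scaling of library sizes) in LNCaP with miR-375, against 5746 and 5711 CPM in LNCaP controls, and to 553 to 610 CPM in PC3, where 2 were at 0. The 4 PC3 markers summed to 842 and 831 CPM in PC3 with miR-375, against 1569 and 1539 CPM in PC3 controls, all 4 being called lower, and to 31.4 to 46.0 CPM in LNCaP. Leukocyte markers summed to at most 1.68 CPM in any library, and 3 endothelial markers to 31.9 and 33.4 CPM in PC3 with miR-375, against 45.4 and 45.2 CPM in PC3 controls. Markers of fibroblasts, 5 in all, summed to 390 and 368 CPM in PC3 with miR-375, against 138 and 145 CPM in PC3 controls, where 1 of 5 was at 0, and to 41.1 to 49.6 CPM in LNCaP. The part of these marker shifts in the results below was not tested, and in these bulk libraries fewer cells of a type and less RNA per cell cannot be told apart.

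miR-375 recognises messages through its seed, bases 2 to 8, shown in capitals below because targets usually carry its complement. The mature sequence (RefSeq, GRCh38.p14, chr2:219001648-219001669, minus strand) is followed by the matches to bases 2 to 7 plus an A (GAACAAA) found in the annotated 3′ UTRs (GENCODE 29) of 2 members that fell in both lines, also in capitals.
hsa-miR-375-3p: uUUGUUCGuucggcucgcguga
ATP5F1A: aaaattgctgGAACAAAagctgaga
NDUFS1: ggacaaaattGAACAAAcaagatga
Of 83 members with an annotated UTR, 5 (6.02%) held a match, ATP5F1A and NDUFS1 among them. The others were SDHA, NDUFA9 and UQCRB, which were not called in LNCaP (-0.02, -0.23 and 0.07). All 5 were called lower in PC3, a call that NDUFA9 and UQCRB lost with total-count scaling. In PC3 28 of 84 nuclear members and 20.8% of all tested genes were called lower. The LNCaP call of NDUFS1 was likewise lost with total-count scaling. Whether the match had a part in these falls was not tested. Over 14894 tested genes the share with a match was 14.9%. The median UTR of those genes, 1046 bases, was longer than the 223 bases of the members. No member held a match to bases 2 to 8 (CGAACAA). Some of these UTRs are long isoforms, 9368 bases for NDUFS1, and a match is a description of letters, not of binding.

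In LNCaP the mitochondrially encoded members were slightly higher or level with miR-375, and in PC3 they were lower. With miR-375 in LNCaP, 5 of 11 rose and none fell, with a median log2 fold change of 0.08, where 13.9% of all tested genes rose and 18.7% fell. In PC3 none of 11 rose and 10 fell, with a median of -0.36, where 22.2% of all tested genes rose and 20.8% fell. The median of all tested genes was 0 in LNCaP and 0.02 in PC3. Calls were made with edgeR's quasi-likelihood test at a Benjamini-Hochberg adjusted p under 0.05. The LNCaP count rose to 9 with library sizes from total counts and to 10 without replicate 1 of LNCaP with miR-375, and no member was called lower in either case.

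**Figure D1:**
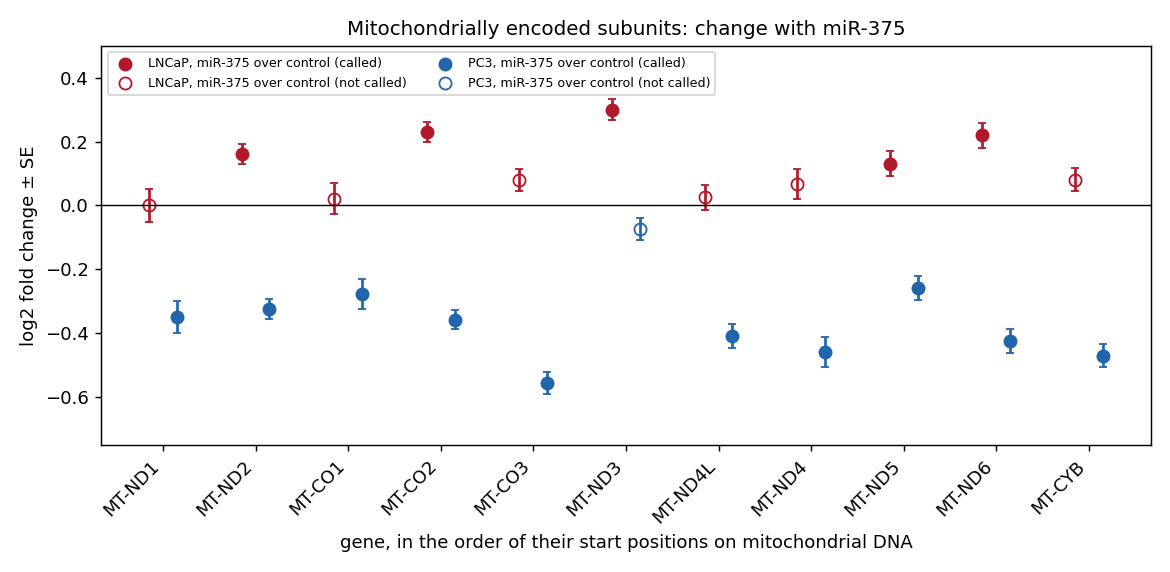
Log2 fold change (± SE, edgeR) of each mitochondrially encoded member with miR-375 over control, 2 libraries a group, in LNCaP (red) and PC3 (blue), with genes along the x axis in the order of their start positions. Filled points passed the test. LNCaP values run from 0 to 0.30 and PC3 values from -0.56 to -0.07, so each gene's LNCaP point lies above its PC3 point.

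Among the complex I genes, MT-ND3 (chrM:10059-10404) had 507 and 521 CPM in LNCaP with miR-375, against 425 and 410 CPM in LNCaP controls. In PC3 it had 469 and 461 CPM with miR-375 and 493 and 485 CPM in controls. The LNCaP libraries did not overlap, and the change was 0.30 ± 0.03 (log2, SE, adjusted p = 2.94e-09), the largest of the 11 in LNCaP. MT-ND3 was also the one mitochondrial member that did not pass in PC3, at -0.07 ± 0.03 (edgeR adjusted p = 0.071), though it was called lower there in 8 alternatives (adjusted p from 0.000764 to 0.0225), DESeq2 and halved counts among them.

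MT-ND6, the subunit encoded on the opposite strand from the other 10, had 223 and 234 CPM in LNCaP with miR-375, against 200 and 193 CPM in LNCaP controls. It had 352 and 326 CPM in PC3 with miR-375, against 462 and 448 CPM in PC3 controls. The groups did not overlap in either line, with the miR-375 libraries above the controls in LNCaP and below them in PC3. The changes were 0.22 ± 0.04 in LNCaP (edgeR adjusted p = 2.59e-05) and -0.43 ± 0.04 in PC3 (edgeR adjusted p = 6.96e-12). The sources used here do not give the strand setting of the counting, so reads of MT-ND6 and of RNA opposite to it cannot be told apart.

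MT-ND2 had 1336 and 1340 CPM in LNCaP with miR-375, against 1223 and 1169 CPM in LNCaP controls, and 1588 and 1542 CPM in PC3 with miR-375, against 1997 and 1925 CPM in PC3 controls. MT-ND5 had 622 and 621 CPM in LNCaP with miR-375, against 569 and 567 CPM in LNCaP controls, and 1574 and 1398 CPM in PC3 with miR-375, against 1816 and 1739 CPM in PC3 controls. Both encode proton-pumping membrane subunits, and both rose in LNCaP (0.16 and 0.13) and fell in PC3 (-0.33 and -0.26). The PC3 fall of MT-ND5 lost its call when PC3 was fitted alone.

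MT-ND4 had 1976 and 2167 CPM in LNCaP with miR-375, against 2038 and 1915 CPM in LNCaP controls, groups that overlap. In PC3 it had 3738 and 3908 CPM with miR-375, against 5502 and 5016 CPM in controls, a fall of -0.46 ± 0.05. MT-ND4L, which shares a message with MT-ND4, changed by 0.03 in LNCaP, which did not pass, and fell in PC3 (-0.41 ± 0.04). MT-ND1 had a log2 value of 0.00 in LNCaP, where its libraries overlapped, and of -0.35 ± 0.05 in PC3, where it fell to 1539 and 1486 CPM with miR-375, against 2021 and 1834 CPM in controls.

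Cytochrome b of complex III, MT-CYB, had 1414 and 1547 CPM in LNCaP with miR-375, against 1434 and 1366 CPM in LNCaP controls, and did not pass but was called higher in 6 alternatives. It fell to 1385 and 1331 CPM in PC3 with miR-375, against 1937 and 1828 CPM in PC3 controls (-0.47 ± 0.04, edgeR adjusted p = 1.22e-12). The 3 catalytic-core subunits of cytochrome c oxidase, complex IV, differed in size of change. MT-CO3 had 2167 and 2422 CPM in LNCaP with miR-375, against 2141 and 2200 CPM in LNCaP controls, and 1321 and 1308 CPM in PC3 with miR-375, against 1922 and 1945 CPM in PC3 controls. Its PC3 change of -0.56 ± 0.04 was the largest of the 11, and its LNCaP value of 0.08 did not pass but was called in 7 alternatives.

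MT-CO2 had 1946 CPM in both libraries of LNCaP with miR-375, against 1694 and 1624 CPM in LNCaP controls, a rise of 0.23 ± 0.03. In PC3 it had 2209 and 2115 CPM with miR-375, against 2825 and 2717 CPM in controls, a fall of -0.36 ± 0.03. MT-CO1 had 7377 and 7318 CPM in PC3 with miR-375, against 9361 and 8456 CPM in PC3 controls. That fall of -0.28 ± 0.05 was smaller than that of MT-CO3, and the LNCaP libraries of MT-CO1 overlapped (0.02 ± 0.05). Chosen nuclear copies of mitochondrial DNA were near-identical to MT-CO1, MT-CO2, MT-CO3, MT-ND1 and MT-ND2 (98.0% to 99.1% identity over the aligned bases). The aligned stretch was 352 of 956 bases for MT-ND1 and 547 of 784 for MT-CO3. Reads could be split between a gene and its copy. Copies of the other mitochondrial members were not looked for.

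The difference between the lines was itself tested, as the LNCaP effect minus the PC3 effect. All 11 mitochondrial members were called higher in that contrast and none lower, where 10.9% of all tested genes were higher and 15.6% lower. Differences ran from 0.30 (MT-CO1, edgeR adjusted p = 0.00434) to 0.65 (MT-ND6, 9.66e-12), with a median of 0.49, against -0.04 over all tested genes. All 11 kept this call in each of 14 alternatives, which included leaving out each library, total-count scaling and DESeq2.

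The 2 mitochondrial ribosomal RNAs, the other abundant products of mitochondrial DNA, did not follow one pattern. MT-RNR2 (16S) had 7321 and 7297 CPM in LNCaP with miR-375, against 6754 and 6481 CPM in LNCaP controls, and 3059 and 3037 CPM in PC3 with miR-375, against 3921 and 3656 CPM in PC3 controls. As 4 of the messages did, it rose in LNCaP (0.14 ± 0.03) and fell in PC3 (-0.31 ± 0.03). MT-RNR1 (12S) had 457 and 470 CPM in PC3 with miR-375, against 434 and 390 CPM in PC3 controls, and rose there by 0.17 ± 0.06 (edgeR adjusted p = 0.0488). Its LNCaP value was 0.17 with an adjusted p of 0.0508.

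Summed over members, the balance of the 2 genomes differed between lines more than with miR-375. Mitochondrial members took 1.67% and 1.81% of counts in LNCaP with miR-375, against 1.52% and 1.49% in LNCaP controls. In PC3 with miR-375 they took 2.24% and 2.21%, against 2.80% and 2.61% in PC3 controls. Nuclear members took 1.62% and 1.64% of counts in LNCaP with miR-375, against 1.65% and 1.61% in LNCaP controls. In PC3 with miR-375 they took 0.729% and 0.719%, against 0.727% and 0.734% in PC3 controls. The mitochondrial share separated the groups in each line, and the nuclear share did not.

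The ratio of mitochondrial to nuclear counts was 1.069 ± 0.052 in LNCaP with miR-375 and 0.923 ± 0.003 in LNCaP controls (SD, n = 2 each). It was 3.068 ± 0.001 in PC3 with miR-375 and 3.696 ± 0.210 in PC3 controls (SD, n = 2 each). No test was made of these sums; the 2 libraries of each group lay apart from those of its control in both lines, in opposite directions. Within complex I alone the ratio was 1.45 ± 0.04 in LNCaP with miR-375 and 1.28 ± 0.004 in LNCaP controls, and 4.61 ± 0.02 in PC3 with miR-375 and 5.98 ± 0.32 in PC3 controls. Within complex IV it was 3.15 ± 0.20 in LNCaP with miR-375 and 2.76 ± 0.05 in LNCaP controls, and 8.03 ± 0.03 in PC3 with miR-375 and 9.06 ± 0.54 in PC3 controls.

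**Figure D2:**
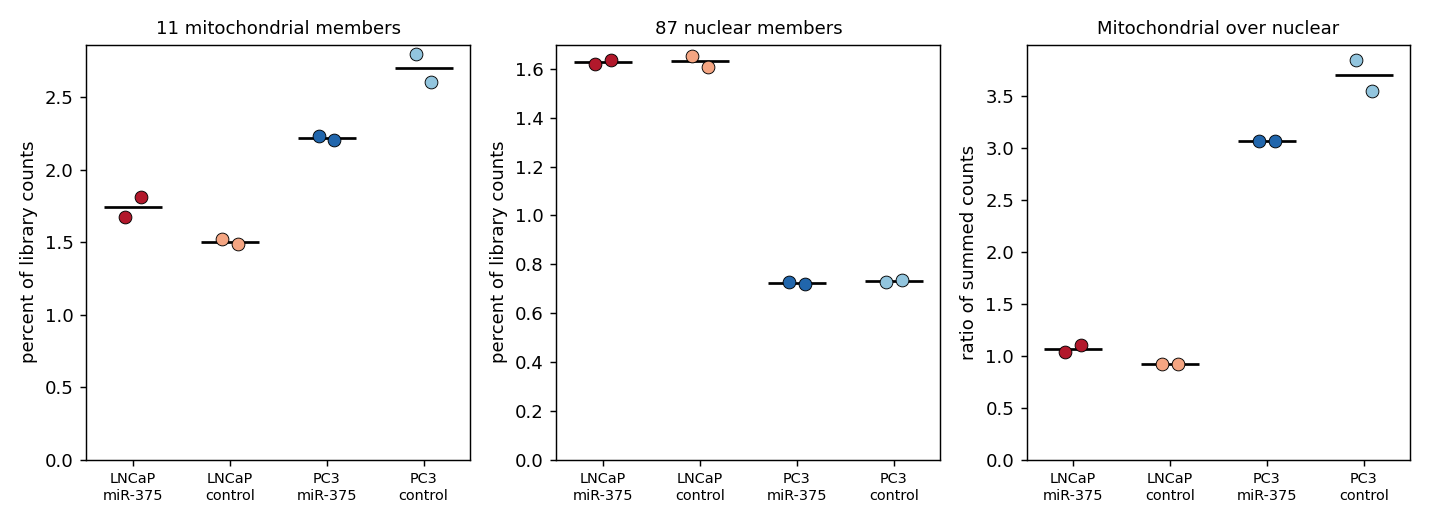
Share of each library's counts taken by the 11 mitochondrial members (left) and the 87 nuclear members (centre), in percent, and the ratio of the summed counts (right), with a point for each library and a bar at the mean of 2. The ratio is 1.03 to 1.11 in LNCaP with miR-375 and 0.92 in LNCaP controls, and 3.07 in PC3 with miR-375 and 3.55 to 3.85 in PC3 controls.

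Of 84 nuclear members tested, 10 rose and 21 fell in LNCaP with miR-375, and 14 rose and 28 fell in PC3 with miR-375. Called members in either direction were 36.9% in LNCaP and 50% in PC3, against 32.6% and 43% of all tested genes, so the shares lay near the background. The median nuclear change was -0.04 in LNCaP and -0.05 in PC3. With library sizes from total counts, which raise the median of all genes by 0.12 in LNCaP and 0.08 in PC3, the split was 28 higher and 12 lower in LNCaP and 24 higher and 19 lower in PC3. Without replicate 1 of the LNCaP controls it was 18 higher and 13 lower in LNCaP. No called nuclear member turned its sign with total counts, but of those that fell 12 of 21 in LNCaP and 19 of 28 in PC3 kept their call.

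By line, 15 nuclear members fell in both, 7 rose in both, 2 fell in LNCaP and rose in PC3, and 35 passed in neither. Such joint shares were not computed over all tested genes, so these counts have no background to be set against. Of the 21 that fell in LNCaP, 11 kept their call in each of 15 alternatives, and of the 28 that fell in PC3, 16 did. Of those that rose, 7 of 10 in LNCaP and 10 of 14 in PC3 did.

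**Figure D3:**
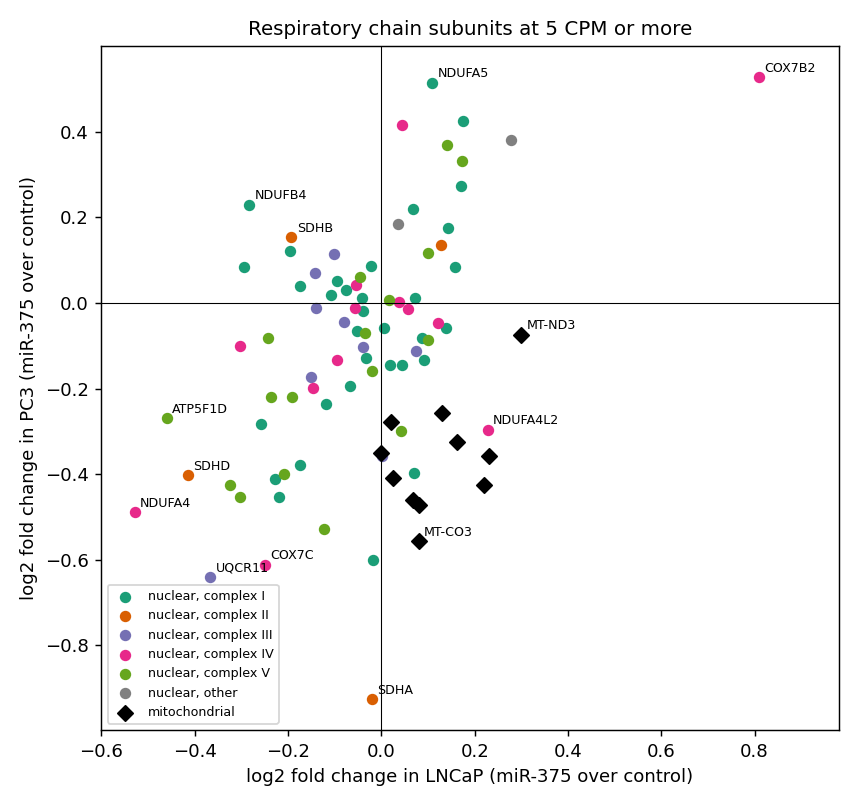
Log2 fold change with miR-375 over control in LNCaP (x axis) and in PC3 (y axis) for members with a mean of at least 5 CPM, coloured by complex, with mitochondrial members as black diamonds. The mitochondrial members lie at or right of 0 in LNCaP and below 0 in PC3, whereas nuclear members of every complex scatter around 0, with NDUFA4 at -0.53 and -0.49 and SDHA at -0.02 and -0.93.

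In complex I, 4 of 37 nuclear members rose and 6 fell in LNCaP, and 6 rose and 8 fell in PC3, so that 27% and 37.8% were called, against 32.6% and 43% of all tested genes. NDUFB4 (chr3:120596309-120602500), an accessory subunit of the membrane arm, had 731 and 756 CPM in LNCaP with miR-375, against 922 and 888 CPM in LNCaP controls. It had 149 and 144 CPM in PC3 with miR-375, against 127 and 122 CPM in PC3 controls. NDUFB4 fell in LNCaP (-0.28 ± 0.03, edgeR adjusted p = 1.38e-08) and rose in PC3 (0.23 ± 0.04, 3.24e-06), and the difference of -0.51 ± 0.05 was called, with 3.24e-10.

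NDUFA5, an accessory subunit of the matrix arm, had 147 and 143 CPM in LNCaP with miR-375, against 136 and 132 CPM in LNCaP controls, and 87.4 and 86.0 CPM in PC3 with miR-375, against 58.2 and 63.3 CPM in PC3 controls. It rose in PC3 by 0.51 ± 0.05, and its LNCaP value of 0.11 did not pass (adjusted p = 0.0676), but was called higher in 7 alternatives (0.000102 to 0.0398). NDUFB10, a membrane-arm subunit, had 171 and 168 CPM in LNCaP with miR-375, against 209 and 207 CPM in LNCaP controls, a fall of -0.30 ± 0.04, and its PC3 value of 0.08 did not pass. Both genes were called lower in the difference between lines, NDUFA5 by -0.40 and NDUFB10 by -0.38.

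NDUFV1, the subunit that binds NADH and the flavin, fell by a similar size in both lines (-0.26 ± 0.04 in LNCaP and -0.28 ± 0.04 in PC3). It had 282 and 290 CPM in LNCaP with miR-375, against 352 and 332 CPM in LNCaP controls. NDUFS1, the largest iron-sulfur subunit of the matrix arm and one of the 5 members with a seed match, had 124 and 121 CPM in PC3 with miR-375, against 166 and 169 CPM in PC3 controls, and fell by -0.45 ± 0.04. Its LNCaP fall of -0.22 lost its call with total-count scaling. NDUFA1, a small membrane subunit, rose in both lines, by 0.17 ± 0.05 in LNCaP and by 0.42 ± 0.05 in PC3.

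NDUFB3 fell in PC3 (-0.40 ± 0.06), with 39.2 and 36.9 CPM with miR-375, against 49.6 and 50.7 CPM in controls. Its LNCaP value of 0.07 did not pass, and the line difference of 0.47 ± 0.09 was called. NDUFA11 had 5.24 and 5.48 CPM in PC3 with miR-375, against 9.21 and 7.03 CPM in PC3 controls, a change of -0.60 ± 0.15 that was not called without replicate 1 of the PC3 controls. NDUFA9 fell in PC3 (-0.41 ± 0.15, edgeR adjusted p = 0.0251), a call lost with DESeq2, with total-count scaling and without 3 of the 4 PC3 libraries.

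All subunits of complex II, succinate dehydrogenase, are nuclear, and its 4 genes moved apart from each other. SDHA (chr5:218241-256700), the flavoprotein that oxidises succinate, had 10.8 and 11.7 CPM in LNCaP with miR-375, against 11.4 and 11.4 CPM in LNCaP controls. It had 9.67 and 9.35 CPM in PC3 with miR-375, against 18.4 and 17.7 CPM in PC3 controls. The PC3 groups were far apart and the LNCaP groups overlapped: SDHA fell in PC3 by -0.93 ± 0.12 (edgeR adjusted p = 1.9e-08), its LNCaP value was -0.02 ± 0.12, and the difference of 0.90 ± 0.17 was called (5.59e-05). The gene has near-identical pseudogene copies, so its low counts (1.36 ± 0.002 CPM per kb of exon in LNCaP controls and 2.15 ± 0.06 in PC3 controls, SD, n = 2 each) are uncertain.

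SDHD (chr11:112086773-112120013), a membrane anchor with the ubiquinone site, had 85.4 and 82.0 CPM in LNCaP with miR-375, against 113 and 111 CPM in LNCaP controls. It had 48.7 and 45.9 CPM in PC3 with miR-375, against 62.0 and 63.1 CPM in PC3 controls. SDHD fell by nearly the same size in both lines, -0.42 ± 0.05 in LNCaP (edgeR adjusted p = 2.19e-08) and -0.40 ± 0.05 in PC3 (7.69e-08), and kept both calls in each of 15 alternatives. SDHC, the other anchor, rose in both lines (0.13 ± 0.04 each); the PC3 call was lost without replicate 1 of the PC3 controls (adjusted p = 0.0655).

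SDHB, the iron-sulfur subunit, had 79.7 CPM in both libraries of LNCaP with miR-375, against 93.7 and 88.5 CPM in LNCaP controls, and 94.3 and 89.9 CPM in PC3 with miR-375, against 86.0 and 79.6 CPM in PC3 controls. It was called lower in LNCaP (-0.19) and higher in PC3 (0.15), the only nuclear member beside NDUFB4 with opposite calls. Both calls were weak: the LNCaP one was lost without 3 of the 4 LNCaP libraries and with total-count scaling (-0.07, adjusted p = 0.325), and the PC3 one without replicate 2 of the PC3 controls (adjusted p = 0.303) or replicate 1 of PC3 with miR-375 (0.155). The difference between the lines, -0.35 ± 0.07, was called in each of 14 alternatives.

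**Figure D4:**
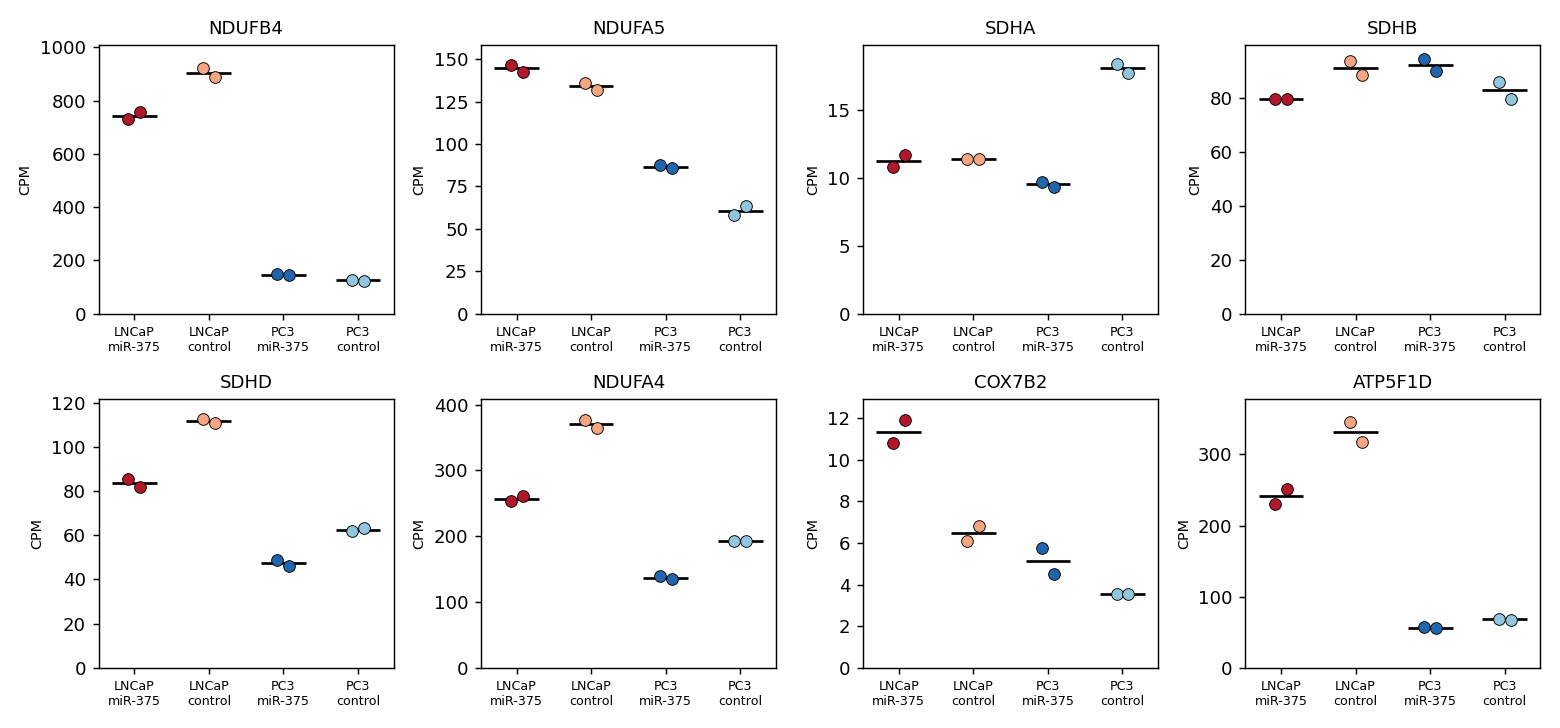
CPM of 8 nuclear members in each library (points) with the mean of 2 (bar), for LNCaP with miR-375, LNCaP control, PC3 with miR-375 and PC3 control; each panel has its own y axis from 0. NDUFA4 and SDHD are lower with miR-375 in both lines, NDUFB4 is lower in LNCaP and higher in PC3, and SDHA is lower in PC3 while its LNCaP libraries overlap.

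Promoters of NDUFB4 and SDHD are shown because both genes changed in each line, 1 in opposite directions and the other alike, and both hold GCGCATG, the core of the site bound by NRF1, an activator of respiratory genes; capitals mark it. The bases before the annotated start are printed (RefSeq, GRCh38.p14, plus strand), at chr3:120596086-120596308 for NDUFB4 and chr11:112086623-112086772 for SDHD.
NDUFB4: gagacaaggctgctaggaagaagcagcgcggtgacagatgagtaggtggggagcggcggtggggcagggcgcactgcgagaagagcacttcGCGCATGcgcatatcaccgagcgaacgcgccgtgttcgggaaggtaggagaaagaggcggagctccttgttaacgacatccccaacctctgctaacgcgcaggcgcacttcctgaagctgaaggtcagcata
SDHD: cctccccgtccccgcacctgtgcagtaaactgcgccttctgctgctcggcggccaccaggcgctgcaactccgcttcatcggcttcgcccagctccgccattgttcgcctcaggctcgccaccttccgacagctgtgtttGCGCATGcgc
Full RefSeq windows, of 250 bases before and 50 after the RefSeq start, were matched for 68 of 87 nuclear members and searched on both strands. This core was in 22.2% of 81 member promoters and in 4.43% of 35116 RefSeq promoters. Some members had more than 1 window. Windows with the core overlap for ATP5MC2, for NDUFB8, and between NDUFA6 and NDUFA6-DT, so some sites may be counted more than once. The RefSeq promoters were not matched to the members for base content or expression. An ETS core, CCGGAAG, was in 25.9% of member promoters and 10.3% of all. The hypoxia core ACGTG was in 23.5% of member promoters and 21.4% of all. None of these motifs contains another. In all 16 members had the core of the NRF1 site in a promoter window. Of these 16, 1 rose and 4 fell in LNCaP, and 4 rose and 4 fell in PC3. Calls in either direction made up 32.6% of the 21066 genes fitted for LNCaP and 43% for PC3. The few calls among members with the core thus lay near the background, and a link to the NRF1 site was not tested.

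None of 9 nuclear complex III members rose in either line, and 4 fell in each. The 44.4% called were thus all falls, where 18.7% of all tested genes fell in LNCaP and 20.8% in PC3. Calls in either direction were 32.6% of all tested genes in LNCaP and 43% in PC3. UQCR11, a small accessory subunit, had 26.1 and 26.3 CPM in LNCaP with miR-375, against 35.1 and 32.5 CPM in LNCaP controls, and 5.999 and 6.001 CPM in PC3 with miR-375, against 9.43 and 9.26 CPM in PC3 controls. It fell in both lines, by -0.37 ± 0.09 and -0.64 ± 0.12; the LNCaP call was lost without replicate 1 of the LNCaP controls (adjusted p = 0.127). UQCR10 fell in PC3 (-0.36 ± 0.09), which was not called without replicate 2 of PC3 with miR-375. UQCRH, the hinge subunit, fell in both lines by small amounts (-0.15 and -0.17), and its LNCaP call was lost with total-count scaling and without 3 of the 4 LNCaP libraries. UQCRFS1, the Rieske iron-sulfur protein, and UQCRC2, a core protein, were called lower in LNCaP (-0.14 each), both lost with total-count scaling and without each LNCaP library in turn.

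In complex IV, 3 of 14 tested nuclear members rose and 3 fell in LNCaP, and 2 rose and 5 fell in PC3, so that 42.9% and 50% were called, against 32.6% and 43% of all tested genes. NDUFA4 (chr7:10931951-10940256), once assigned to complex I and now known as a cytochrome c oxidase subunit, had 253 and 261 CPM in LNCaP with miR-375, against 377 and 365 CPM in LNCaP controls. It had 139 and 135 CPM in PC3 with miR-375, against 192 and 192 CPM in PC3 controls. Groups were well apart in both lines, and the falls of -0.53 ± 0.04 (edgeR adjusted p = 2.35e-14) and -0.49 ± 0.04 (2.03e-13) differed by only -0.04 ± 0.05. NDUFA4 had the largest fall of any called nuclear member in LNCaP, and no miR-375 seed match in its annotated 3′ UTR.

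COX7C, a small membrane subunit, had 455 and 458 CPM in LNCaP with miR-375, against 548 and 539 CPM in LNCaP controls, and 226 and 212 CPM in PC3 with miR-375, against 330 and 339 CPM in PC3 controls. It fell by -0.25 ± 0.04 in LNCaP and by -0.61 ± 0.04 in PC3, and the difference of 0.36 ± 0.05 was called. COX5A, a subunit on the matrix side, fell in LNCaP (-0.30 ± 0.04); its PC3 value of -0.10 lost its call without each PC3 library in turn, with total-count scaling and with other settings. COX7B rose in PC3 to 144 and 139 CPM with miR-375, against 108 and 104 CPM in controls (0.42 ± 0.04), and its LNCaP value of 0.04 did not pass.

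Isoforms known from restricted tissues or conditions were mostly at low levels. COX7B2 (chr4:46734827-46909235), a testis-type isoform of COX7B, had 10.8 and 11.9 CPM in LNCaP with miR-375, against 6.10 and 6.84 CPM in LNCaP controls, and 5.76 and 4.51 CPM in PC3 with miR-375, against 3.57 and 3.55 CPM in PC3 controls. Its rise in LNCaP of 0.81 ± 0.16 (edgeR adjusted p = 0.000106) kept its call in each of 15 alternatives. The PC3 rise of 0.53 ± 0.18 (adjusted p = 0.015) did not: it was 0.34 with adjusted p = 0.227 without replicate 1 of PC3 with miR-375, and was also lost with DESeq2 (0.059) and without either PC3 control (0.0536 and 0.0608).

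NDUFA4L2, a paralogue of NDUFA4 induced in hypoxia, had 257 and 211 CPM in LNCaP with miR-375, against 209 and 191 CPM in LNCaP controls. PC3 had 0.809 and 0.474 CPM with miR-375 and 0.823 and 0.752 CPM in controls. The LNCaP rise of 0.23 ± 0.08 was lost without replicate 2 of the LNCaP controls, without replicate 1 of LNCaP with miR-375 and without either PC3 control. COX6B2, COX7A1 and COX8C stayed below 0.7 CPM in every library.

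**Figure D5:**
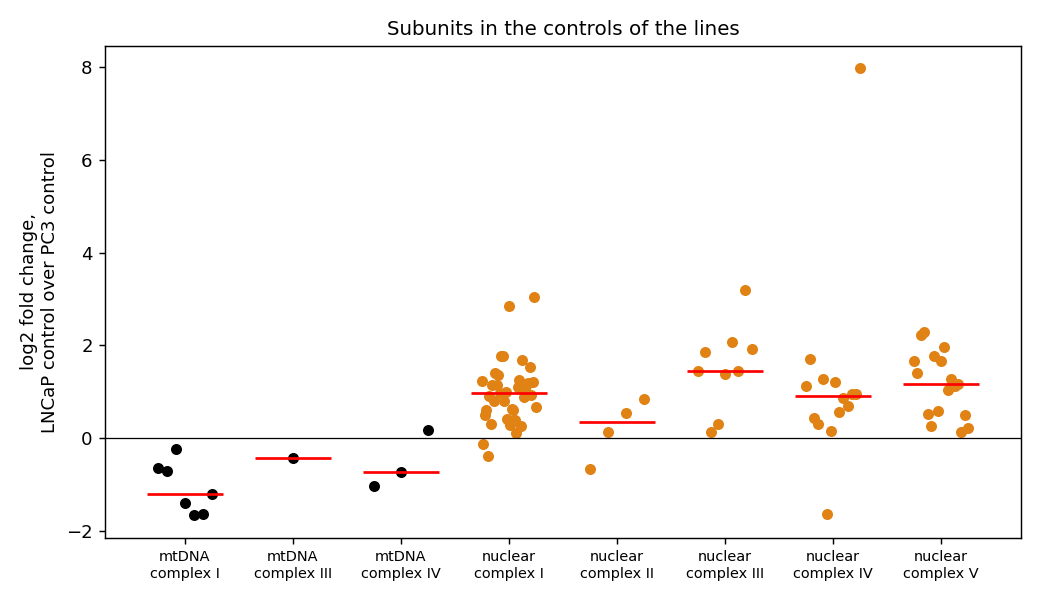
Log2 fold change of LNCaP controls over PC3 controls for each tested member of complexes I to V, grouped by genome and complex on the x axis, with mitochondrial members in black, nuclear ones in orange and a red bar at each group's median. Of the mitochondrial members only MT-CO3 lies above 0, the nuclear medians lie between 0.34 and 1.45, and the highest point is NDUFA4L2 at 7.98.

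For the ATP synthase, 1 of 17 members rose and 6 fell in LNCaP, and 2 rose and 9 fell in PC3. In either direction 41.2% and 64.7% were called, against 32.6% and 43% of all tested genes. Most of these calls were falls, where 18.7% of all tested genes fell in LNCaP and 20.8% in PC3. ATP5F1A, the alpha subunit of the catalytic head and one of the members with a seed match, had 1077 and 1089 CPM in LNCaP with miR-375, against 1335 and 1337 CPM in LNCaP controls, and 317 and 300.0 CPM in PC3 with miR-375, against 421 and 423 CPM in PC3 controls. It fell in both lines, by -0.30 ± 0.03 and -0.45 ± 0.03. ATP5F1B, the catalytic beta subunit, fell in LNCaP (-0.24 ± 0.03); its PC3 value of -0.08 lost its call with total-count scaling and without each PC3 library in turn.

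ATP5F1D, the delta subunit of the central stalk, had 231 and 252 CPM in LNCaP with miR-375, against 346 and 318 CPM in LNCaP controls, and 57.4 and 55.5 CPM in PC3 with miR-375, against 68.4 and 67.5 CPM in PC3 controls. It fell by -0.46 ± 0.04 in LNCaP and -0.27 ± 0.05 in PC3. ATP5MC1, one of 3 genes for the c subunit of the rotor ring, fell by -0.32 ± 0.05 in LNCaP and -0.42 ± 0.05 in PC3. ATP5F1E, the epsilon subunit, fell in PC3 (-0.30 ± 0.04) with a LNCaP value of 0.04 that did not pass. ATP5PO, part of the peripheral stalk, fell in PC3 (-0.53 ± 0.11), and 19.6% of its exon bases overlap another gene on the same strand.

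ATP5IF1, the inhibitor that blocks ATP hydrolysis by the synthase, moved the other way. It had 201 and 195 CPM in LNCaP with miR-375, against 166 and 161 CPM in LNCaP controls, and 77.9 and 79.9 CPM in PC3 with miR-375, against 61.3 and 60.1 CPM in PC3 controls. ATP5IF1 rose in both lines, by 0.28 ± 0.04 (edgeR adjusted p = 1.18e-06) and 0.38 ± 0.05 (7.64e-09), and kept both calls in each of 15 alternatives. Of the subunits themselves, ATP5MF and ATP5MG, both of the membrane part, rose in PC3 (0.37 ± 0.06 and 0.33 ± 0.08).

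In the difference between lines, 15 of 84 nuclear members were called higher and 13 lower, with a median of 0.01; calls in either direction were 33.3%, against 26.5% of all tested genes. These counts rested on few libraries: the higher ones numbered 8 without replicate 2 of PC3 with miR-375 and 9 without replicate 2 of the PC3 controls, and the lower ones 5 to 7 without any one LNCaP library, 7 with DESeq2 and 6 with counts halved or with no filter. Nuclear members that kept a call in each of 14 alternatives were NDUFB3, NDUFS1, SDHA, COX7C and ATP5F1E (higher) and SDHB, NDUFB4, NDUFA5, COX7B and NDUFB10 (lower).

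The lines differed strongly without miR-375, in opposite directions for the 2 genomes. In LNCaP controls against PC3 controls, 76 of 84 nuclear members were higher and 2 lower, with a median log2 fold change of 0.99, where 41.2% of all tested genes were higher and 39.2% lower. Of the 11 mitochondrial members, 1 was higher and 10 were lower, with a median of -0.74. The median over all tested genes was 0.07 and 80.4% of them were called, against 92.9% of nuclear members. Per kb of exon, the median nuclear member had 45.6 CPM in LNCaP controls and 25.7 CPM in PC3 controls, and the median mitochondrial member had 1230 CPM in LNCaP controls and 2020 CPM in PC3 controls.

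MT-CO3 was the exception, at 2769 ± 53.1 CPM per kb in LNCaP controls and 2466 ± 20.4 CPM per kb in PC3 controls (0.17 ± 0.04, SD and n = 2 each for the levels). MT-ND4L, at -1.67 ± 0.04, and MT-ND5, at -1.65 ± 0.04, differed most. Counts of both mitochondrial ribosomal RNAs went against those of most messages. In LNCaP controls MT-RNR1 had 971 and 868 CPM, against 434 and 390 CPM in PC3 controls. MT-RNR2 was likewise higher in LNCaP controls (0.80 ± 0.03). The libraries hold poly(A) RNA, and their capture of ribosomal RNA was not tested, so these counts may not give its level.

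NDUFB4 had 479 ± 13.1 CPM per kb in LNCaP controls and 66.02 ± 1.80 CPM per kb in PC3 controls (SD, n = 2 each), a log2 difference of 2.86 ± 0.04. NDUFA4L2 differed most, by 7.98 ± 0.15. UQCRHL differed by 3.19 ± 0.10, with 67.5 and 66.5 CPM in LNCaP controls, against 6.31 and 8.43 CPM in PC3 controls; it resembles UQCRH closely in sequence, so reads could be split between them. SDHA and NDUFA10 were the 2 nuclear members lower in LNCaP controls (-0.67 and -0.13), and the call of NDUFA10 was lost without replicate 1 of the PC3 controls.

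Levels per kb also marked members whose counts are uncertain. There were 14 nuclear members below 6 CPM per kb in the controls of both lines, and 10 of them share exon bases with another gene on the same strand, against 17 of the other 73. SDHA, NDUFA9, NDUFA11 and ATP5PO, described above, are among the 14. Other members described above overlap as well, among them SDHD and UQCR11 over 11.2% and 10.9% of their exon bases. The share was 10.6% for NDUFA9, 9.65% for NDUFA11, 8.6% for ATP5MF, 8.4% for NDUFV1 and 8.2% for ATP5MG. NDUFB8, NDUFA7 and NDUFV2 overlap over 33.8%, 32.3% and 28.4% of their exon bases, and NDUFV2 had 3.50 and 2.61 CPM in LNCaP controls, against 0.374 and 0.363 CPM in PC3 controls. The sources used here do not say whether reads in shared bases were counted.

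Genes that build or feed the chain were taken from lists of related functions. Their calls come from the TMM-scaled edgeR fit alone, since the alternatives were examined for members only. With total-count scaling, 2614 of all tested genes were called lower in LNCaP, against 3933 with TMM, and 3604 in PC3, against 4380. Whether the listed genes keep their calls with it was not tested. Of 51 tested assembly factors, 5 rose and 11 fell in LNCaP and 5 rose and 15 fell in PC3. A share of 9.8% rose and 21.6% fell in LNCaP, against 13.9% and 18.7% of all tested genes, and 9.8% rose and 29.4% fell in PC3, against 22.2% and 20.8%. ATPAF1, an assembly factor of the F1 head, had 155 and 147 CPM in LNCaP with miR-375, against 189 and 196 CPM in LNCaP controls, and 39.5 and 43.0 CPM in PC3 with miR-375, against 67.3 and 68.1 CPM in PC3 controls, and fell in both lines (-0.35 ± 0.05 and -0.71 ± 0.05). TTC19, which supports complex III, fell by -0.20 ± 0.05 in LNCaP and by -1.05 ± 0.06 in PC3. FOXRED1, needed for complex I, fell in both (-0.60 ± 0.06 and -0.47 ± 0.06), and NDUFAF1, another complex I factor, rose in LNCaP (0.25) and fell in PC3 (-0.27).

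Of 32 genes for transcription, replication and RNA processing of mitochondrial DNA, 1 rose and 21 fell in LNCaP, with a median of -0.25, and 5 rose and 13 fell in PC3, with a median of 0.03. The share that fell was 65.6% in LNCaP, against 18.7% of all tested genes, and 40.6% in PC3, against 20.8%. MGME1, a nuclease that acts in replication of mitochondrial DNA, had 22.1 and 22.8 CPM in LNCaP with miR-375, against 57.3 and 53.9 CPM in LNCaP controls, and 19.2 and 23.0 CPM in PC3 with miR-375, against 50.6 and 48.4 CPM in PC3 controls. It fell in both lines, by -1.31 ± 0.08 and -1.23 ± 0.08. TWNK, the replicative helicase, fell by -0.92 ± 0.07 in LNCaP and -0.40 ± 0.07 in PC3. POLG, the replicative polymerase, fell in LNCaP (-0.27) and rose in PC3 (0.25), and the only riser in LNCaP was MTERF2 (0.39 ± 0.13). FASTKD5, which processes mitochondrial messages, rose in PC3 (0.57 ± 0.06), with 50.0 and 45.1 CPM with miR-375, against 31.3 and 32.6 CPM in controls.

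Among 13 nuclear regulators of mitochondrial genes, none rose and 9 fell in LNCaP, and 2 rose and 3 fell in PC3. The share that fell was 69.2% in LNCaP, against 18.7% of all tested genes, and 23.1% in PC3, against 20.8%, near the background. MYC, an activator of mitochondrial biogenesis genes among many others, had 187 and 183 CPM in LNCaP with miR-375, against 355 and 344 CPM in LNCaP controls, and 164 and 154 CPM in PC3 with miR-375, against 86.5 and 94.8 CPM in PC3 controls. It fell in LNCaP (-0.92 ± 0.04) and rose in PC3 (0.81 ± 0.04), whereas the 4 mitochondrial messages called in both lines rose in LNCaP and fell in PC3. A link between MYC and these messages was not tested. PPARGC1B, a coactivator of respiratory genes, fell in LNCaP (-0.89 ± 0.13), and HIF1A, the hypoxia regulator, fell in PC3 (-0.50 ± 0.03). NRF1 fell in PC3 (-0.26 ± 0.10), and its LNCaP value of -0.26 did not pass (edgeR adjusted p = 0.054).

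Of 19 tested genes for electron carriers and their supply, 2 rose and 9 fell in LNCaP and 5 rose and 7 fell in PC3. The share that fell was 47.4% in LNCaP, against 18.7% of all tested genes, and 36.8% in PC3, against 20.8%. PDSS1 and PDSS2 together make the side chain of ubiquinone; PDSS1 fell in both lines (-0.68 ± 0.11 and -0.77 ± 0.15) and PDSS2 rose in both (0.75 ± 0.07 and 0.66 ± 0.08). DHODH, which passes electrons from pyrimidine synthesis to ubiquinone, fell in LNCaP (-1.04 ± 0.09) to 24.3 and 27.1 CPM with miR-375, against 53.4 and 52.4 CPM in controls. Of 25 citric acid cycle and pyruvate genes, 1 rose and 17 fell in LNCaP and 3 rose and 15 fell in PC3. The share that fell was 68% in LNCaP, against 18.7% of all tested genes, and 60% in PC3, against 20.8%. SUCLG2, a succinyl-CoA ligase subunit, fell in both lines (-0.31 ± 0.05 and -0.94 ± 0.06). PDK4, a kinase that holds back pyruvate dehydrogenase, rose in PC3 to 23.8 and 24.0 CPM with miR-375, against 6.04 and 4.57 CPM in controls (2.17 ± 0.16), and stayed at or below 0.302 CPM in LNCaP.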

How the data were processed

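RNA of 8 libraries was compared in 4 groups of 2, taken from the sample titles. The authors deposited whole-number counts per gene, not normalized. Per the submitters' processing notes, fastp, STAR 2.7.1a, featureCounts and DESeq2 were used with hg38; the sources used here give neither annotation nor strand setting. Of 60625 table lines, 3 broken ones were left out. The depth of 33973861 to 41890528 counts sets the precision, and a count of 0 allows up to 3; such limits cover counting error only.

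Genes passing filterByExpr (21066) were fitted in one model of 4 groups with edgeR 4.0.16 (TMM, robust quasi-likelihood, R 4.3.3), Benjamini-Hochberg adjusted and called under 0.05; the fit was first tested on simulated data. CPM are TMM-scaled. DESeq2 1.42.0 and other settings served as alternatives. Of counts from 1 to 20, 68.1% to 70.3% per library were even numbers. Mates of a pair may thus have been counted singly, which would make fragments fewer than the counts and totals printed, so halved counts were among the alternatives. A chosen set of nuclear copies of mitochondrial genes was aligned with blastn 2.17.0. Members' exon lengths and positions are from GENCODE 29 (GRCh38).

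The members, lists and promoter motifs were chosen with earlier results of these data known. Named were all mitochondrial members, the 3 called nuclear members with the largest change per complex and contrast at 5 CPM or more and the 6 largest over all, opposite calls, complex II, restricted isoforms, and 2 genes per direction, contrast and related list; ATP5IF1, NDUFA1, NDUFA8, NDUFA9, NDUFAF1, NDUFA10 and members named for their overlap or lost calls were added after their values were seen. A few results of the named-gene rule are not reported here.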

Additional observations from a re-analysis of the deposited data

Results flagged for a closer look

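The response to miR-375 differed between the lines in 30 named members, by edgeR's quasi-likelihood test of the LNCaP effect minus the PC3 effect. Some were named for a large call in this contrast. Their number therefore cannot be set against the 26.5% of all tested genes that were called. All 11 mitochondrial members were among the 30, each with a positive difference. On the log2 scale it was 0.35 for MT-ND1, 0.49 for MT-ND2, 0.30 for MT-CO1, 0.59 for MT-CO2, 0.64 for MT-CO3, 0.37 for MT-ND3, 0.43 for MT-ND4L, 0.53 for MT-ND4, 0.39 for MT-ND5, 0.65 for MT-ND6, 0.55 for MT-CYB.

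Among nuclear members the difference was positive in 10, at 0.47 for NDUFB3, 0.23 for NDUFS1, 0.90 for SDHA, 0.36 for COX7C, 0.19 for UQCRB, 0.15 for ATP5F1A, 0.34 for ATP5F1E, 0.58 for NDUFA11, 0.36 for UQCR10, 0.41 for ATP5PO. It was negative in 9, at -0.35 for SDHB, -0.51 for NDUFB4, -0.23 for ATP5MF, -0.40 for NDUFA5, -0.37 for COX7B, -0.20 for COX5A, -0.38 for NDUFB10, -0.21 for UQCRC2, -0.19 for ATP5F1D. ATP5MF and ATP5F1D lost this call with DESeq2 and with total-count scaling, among other settings. COX5A, UQCRC2, NDUFA11 and ATP5PO lost it with DESeq2. The nuclear members that kept it in every alternative are named above. The cause of these differences was not tested.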

How the results depend on the processing

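Mitochondrial members higher in LNCaP numbered 5, and 8 with counts halved and rounded up, 9 with library sizes from total counts, 9 with no filter on low counts and 5 to 10 leaving out a library in turn. Nuclear members higher in LNCaP numbered 10, and 19 with halved counts, 28 with total counts, 20 with no filter and 7 to 18 leaving out a library. Those lower in LNCaP numbered 21, and 12 with total counts and 13 to 21 leaving out a library. Those higher in PC3 numbered 14, and 24 with total counts. In the line difference 15 nuclear members were higher (8 to 21 leaving out a library) and 13 lower (7 with DESeq2, 6 with halved counts, 6 with no filter, 5 to 12 leaving out a library). Nuclear members lower in LNCaP controls than in PC3 controls numbered 2, and 1 to 2 leaving out a library. Without MT-ND4 and MT-ND4L the ratio of the genomes was 0.916 in LNCaP with miR-375, 0.789 in LNCaP controls, 2.45 in PC3 with miR-375 and 2.90 in PC3 controls, fewer genes being summed; without the nuclear readthrough and divergent transcripts it was 3.07 in PC3 with miR-375, against 3.068 with them. No named result reversed. The other counts stayed within 1.5 times, and the cause of the moves was not tested.

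Replicate numbers did not pair the samples: deviations of same-numbered libraries correlated at 0.0181 in LNCaP and 0.0101 in PC3. With a replicate block, 5 mitochondrial members rose in LNCaP, 10 fell in PC3 and 11 differed, and of the nuclear calls 9 of 10 and 21 of 21 in LNCaP and 14 of 14 and 27 of 28 in PC3 were kept, as were 12 of 15 and 13 of 13 in the line difference. With 2 libraries a group, the depth limits calls on low members such as COX6B2.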
